A study of Mus musculus with 19 samples.

Results

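Complement components and complement receptors were followed across 3 groups of mouse Kupffer cells, which are macrophages that live in the liver sinusoids. The genes were C1qa, C1qb and C1qc, which encode the chains of C1q, the components C4b, C3 and C6, properdin (Cfp), and the receptors Vsig4, C3ar1 and C5ar1. They were taken by mouse symbol from the deposited table, and all 10 were found among its 33919 gene identifiers. RNA was sequenced in 19 libraries of cells sorted from the livers of wild-type female C57BL/6 mice, whose age is not given in the sources used here. Chow_EmKCs (n = 6) were CLEC2+ TIMD4+ cells, called embryo-derived, from mice on chow. MCD_EmKCs (n = 6) were cells of the same gate from mice kept for 4 weeks on a methionine- and choline-deficient (MCD) diet, a standard way to bring on steatohepatitis in mice. MCD_MoKCs (n = 7) were CLEC2+ TIMD4- cells, called monocyte-derived, from mice on the MCD diet. The origin of the cells thus rests on a surface gate, and a chow group of TIMD4- cells was not analysed here, so a difference between MCD_MoKCs and Chow_EmKCs joins diet and cell type. Nothing says that libraries came from separate animals, and p-values measure only the spread between these libraries, which may be technical.

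Complement is a cascade of plasma and cell-surface proteins that tags particles for uptake, calls in leukocytes and lyses membranes. C1q recognises antibody complexes, dying cells and some microbes and starts the classical pathway, which cleaves C4 and then C3. Properdin stabilises the C3-cleaving enzyme of the alternative pathway, and C6 is a part of the membrane attack complex at the end of the cascade. The liver makes most plasma complement, mainly in hepatocytes, whereas C1q and properdin come largely from myeloid cells. Kupffer cells capture C3-coated particles from the blood through the receptor encoded by Vsig4 (also called CRIg).

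The genes lie on 6 chromosomes of the mm10 build. C1qa (ENSMUSG00000036887, chromosome 4, 136895917 to 136898803), C1qc (ENSMUSG00000036896, 136889804 to 136893065) and C1qb (ENSMUSG00000036905, 136880129 to 136886187) sit side by side on the minus strand, and each has 3 exonic blocks. C4b (ENSMUSG00000073418, 34728380 to 34743882) and C3 (ENSMUSG00000024164, 57203970 to 57228136) are both on chromosome 17 and on the minus strand. Vsig4 (ENSMUSG00000044206, 96247203 to 96293438) and Cfp (ENSMUSG00000001128, 20925454 to 20931555) are on the minus strand of chromosome X. C6 (ENSMUSG00000022181, chromosome 15, 4727175 to 4814967) is on the plus strand. C3ar1 (ENSMUSG00000040552, chromosome 6, 122847138 to 122856161) and C5ar1 (ENSMUSG00000049130, chromosome 7, 16246743 to 16259540) are on the minus strand. No exon of these genes overlapped an exon of another annotated gene.

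Promoter windows, from 250 bases before to 50 bases after the gene start, were found for 8 of the 10 genes in RefSeq's GRCm38.p6 annotation, and C1qa and C4b are named only. For C6 and C5ar1 this gene start differs from that of the spans given above. Most of the C5ar1 window lies inside that gene's span, which reaches to 16259540. The windows below belong to the 3 genes of that set that were lower in MCD_MoKCs than in both EmKC groups without overlap, C6, Vsig4 and Cfp, and to C5ar1, which was higher. Sequences run 5′ to 3′ along the gene's own strand. Capitals mark, on either strand, GAGGAA (core of the site of the macrophage factor PU.1), TGCTGA (half-site of MAF factors) and AGGTCA (half-site of nuclear receptors).
C6 promoter, chr15:4726960-4727259, plus strand: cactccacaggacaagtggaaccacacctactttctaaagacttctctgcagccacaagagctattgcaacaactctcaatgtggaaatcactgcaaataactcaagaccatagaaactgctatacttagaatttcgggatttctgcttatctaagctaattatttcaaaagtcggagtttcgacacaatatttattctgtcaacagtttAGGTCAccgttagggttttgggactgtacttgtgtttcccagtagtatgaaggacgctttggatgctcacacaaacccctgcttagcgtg
Vsig4 promoter, chrX:96293389-96293688, minus strand: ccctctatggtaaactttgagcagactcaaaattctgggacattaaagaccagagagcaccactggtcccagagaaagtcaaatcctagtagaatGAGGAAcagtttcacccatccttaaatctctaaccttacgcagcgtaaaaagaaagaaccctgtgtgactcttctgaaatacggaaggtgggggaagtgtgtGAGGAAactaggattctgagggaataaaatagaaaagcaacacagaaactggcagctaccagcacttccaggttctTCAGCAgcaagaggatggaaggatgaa
Cfp promoter, chrX:20931506-20931805, minus strand: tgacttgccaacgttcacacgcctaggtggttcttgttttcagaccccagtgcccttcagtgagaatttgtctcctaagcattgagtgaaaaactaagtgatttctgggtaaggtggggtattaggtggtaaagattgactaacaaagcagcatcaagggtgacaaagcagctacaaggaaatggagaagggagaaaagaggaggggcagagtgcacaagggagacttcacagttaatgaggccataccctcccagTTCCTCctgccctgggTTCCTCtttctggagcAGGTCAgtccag
C5ar1 promoter, chr7:16259289-16259588, minus strand: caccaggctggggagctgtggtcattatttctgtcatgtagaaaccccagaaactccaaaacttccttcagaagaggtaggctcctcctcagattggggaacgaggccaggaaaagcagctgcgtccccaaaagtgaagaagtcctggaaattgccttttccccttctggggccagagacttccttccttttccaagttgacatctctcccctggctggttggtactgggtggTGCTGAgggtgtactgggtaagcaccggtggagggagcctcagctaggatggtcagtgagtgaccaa
The Vsig4 and Cfp windows each held GAGGAA at 2 places and the C6 and C5ar1 windows held none. Over the 8 windows, GAGGAA occurred in 4, TGCTGA in 5, AGGTCA in 4 and TATAAA, the TATA box core, in 2. Among 32851 promoter windows of the same length these motifs occurred in 28.3%, 19.5%, 16.3% and 13.6%, so all are common, and a match describes letters in a window and not binding.

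Levels are given as normalised reads, the read number of a gene after the authors' scaling of each library. Library totals ran from 11642240 to 30983487 reads. Together the 10 genes made up 2.22% ± 0.30 of a Chow_EmKC library, 1.79% ± 0.29 of an MCD_EmKC library and 1.20% ± 0.24 of an MCD_MoKC library (SD, n = 6, 6 and 7). Timd4, the sort gene, stood at 10586 ± 2097, 7491 ± 720.0 and 400.2 ± 161 normalised reads in the same order, and Clec1b, which encodes CLEC2, at 6605 ± 804, 7000.3 ± 778 and 5140 ± 1068 (SD). Markers of Kupffer cells (9 genes, with both sort genes among them) took 1.96 to 2.47% of reads in Chow_EmKCs, 1.43 to 1.86% in MCD_EmKCs and 0.459 to 0.747% in MCD_MoKCs, and none was at 0. Clec4f, the most abundant of them in both EmKC groups, averaged 219733, 157671 and 21839 normalised reads. By mean, every listed gene but Id3 (25680, 24261 and 26915) was lowest in MCD_MoKCs. Clec1b, Spic and Marco (5275, 22315 and 1929) had higher means in MCD_EmKCs than in Chow_EmKCs. Hepatocyte markers (13 genes, none at 0 in any group) took 0.0302 to 0.0826%, 0.00369 to 0.0225% and 0.00342 to 0.00814%. Mitochondrial genes took 0.511 to 1.05%, 0.155 to 0.317% and 0.244 to 0.729%, and within MCD_MoKCs libraries 1 to 3 (0.534 to 0.729%) stood apart from libraries 4 to 7 (0.244 to 0.359%).

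Per kilobase of exon, C1qb had the highest level in every group, at 109347 ± 24345 normalised reads per kb in Chow_EmKCs, 94869 ± 15329 in MCD_EmKCs and 88714 ± 20906 in MCD_MoKCs (SD). In both EmKC groups the order of levels per kb was C1qb, C1qc, C1qa, Cfp, Vsig4, C6, C4b, C5ar1, C3ar1 and C3. C1qc, C1qa, Cfp and Vsig4 overlapped each with the next in both EmKC groups, and so did C6 with C4b, while Vsig4 lay clear above C6. In MCD_MoKCs the order was C1qb, C1qc, C1qa, Cfp, Vsig4, C5ar1, C3ar1, C4b, C3 and C6. There C6, at 198 ± 58.6 normalised reads per kb, C3 and C4b overlapped, and every other neighbour except C1qc and C1qa stood apart.

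**Figure D1:**
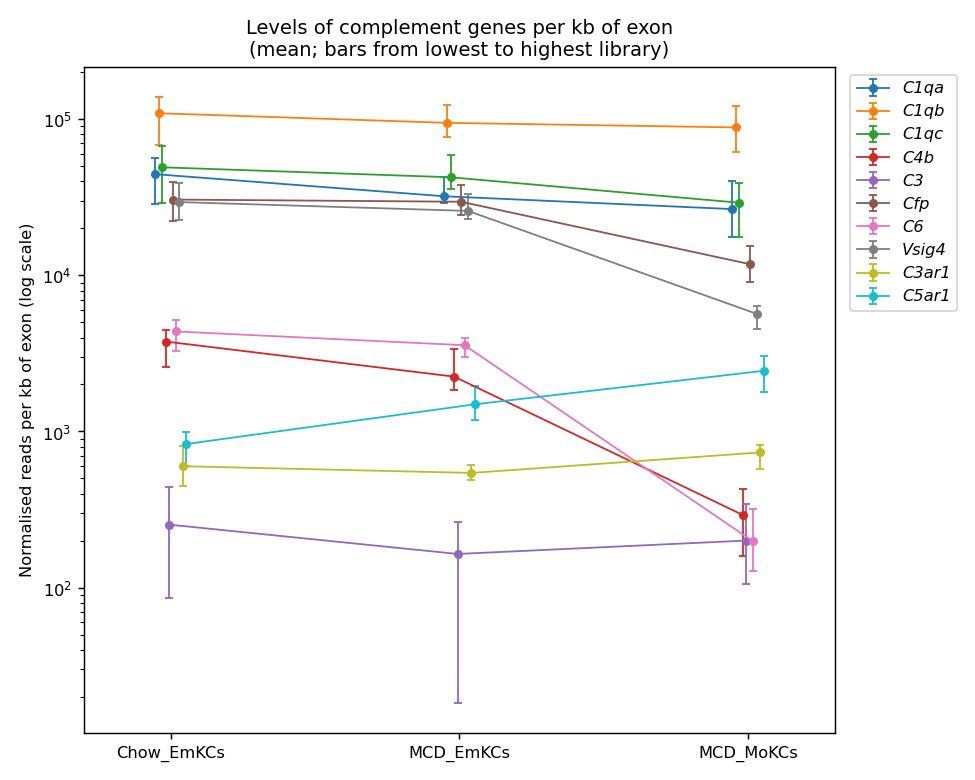
Level of each complement gene in normalised reads per kb of exon (log scale) in Chow_EmKCs (n = 6), MCD_EmKCs (n = 6) and MCD_MoKCs (n = 7); points are means and bars run from the lowest to the highest library. C1qb is at the top of every group, and C6 drops from 3569 per kb in MCD_EmKCs to 198 per kb in MCD_MoKCs.

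The study's design asks what the diet does to resident, embryo-derived cells, and how the cells called monocyte-derived differ from them on the diet. On the diet, 2 of the 10 genes passed the test in embryo-derived cells: C5ar1 rose and C4b fell. Between the cell types on the MCD diet 6 genes passed, with C5ar1 higher in MCD_MoKCs and C6, C4b, Vsig4, Cfp and C1qc lower. Against Chow_EmKCs, MCD_MoKCs had C5ar1 higher and C6, C4b, Vsig4, Cfp, C1qa and C1qc lower, 7 in all. The test was limma on log2(normalised reads + 1) with Benjamini-Hochberg adjustment over 14875 genes and a threshold of 0.05, and all 10 genes passed its filter on low values. Of all genes tested, 4.08% passed for the diet in EmKCs, 10.5% for MCD_MoKCs against MCD_EmKCs and 16.8% for MCD_MoKCs against Chow_EmKCs. By direction, 2.5% were higher and 1.58% lower with the diet, 5.64% higher and 4.9% lower between the cell types, and 8.68% higher and 8.08% lower in MCD_MoKCs against Chow_EmKCs. The median log2 fold change of the 10 genes was -0.19, -0.44 and -0.76 in these comparisons, beside -0.039, 0.021 and -0.012 over all genes tested. Each pair of comparisons shares a group, so their values are given side by side and are not independent. In bulk samples of sorted cells, fewer cells of a type and less RNA of a gene per cell cannot be told apart.

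**Figure D2:**
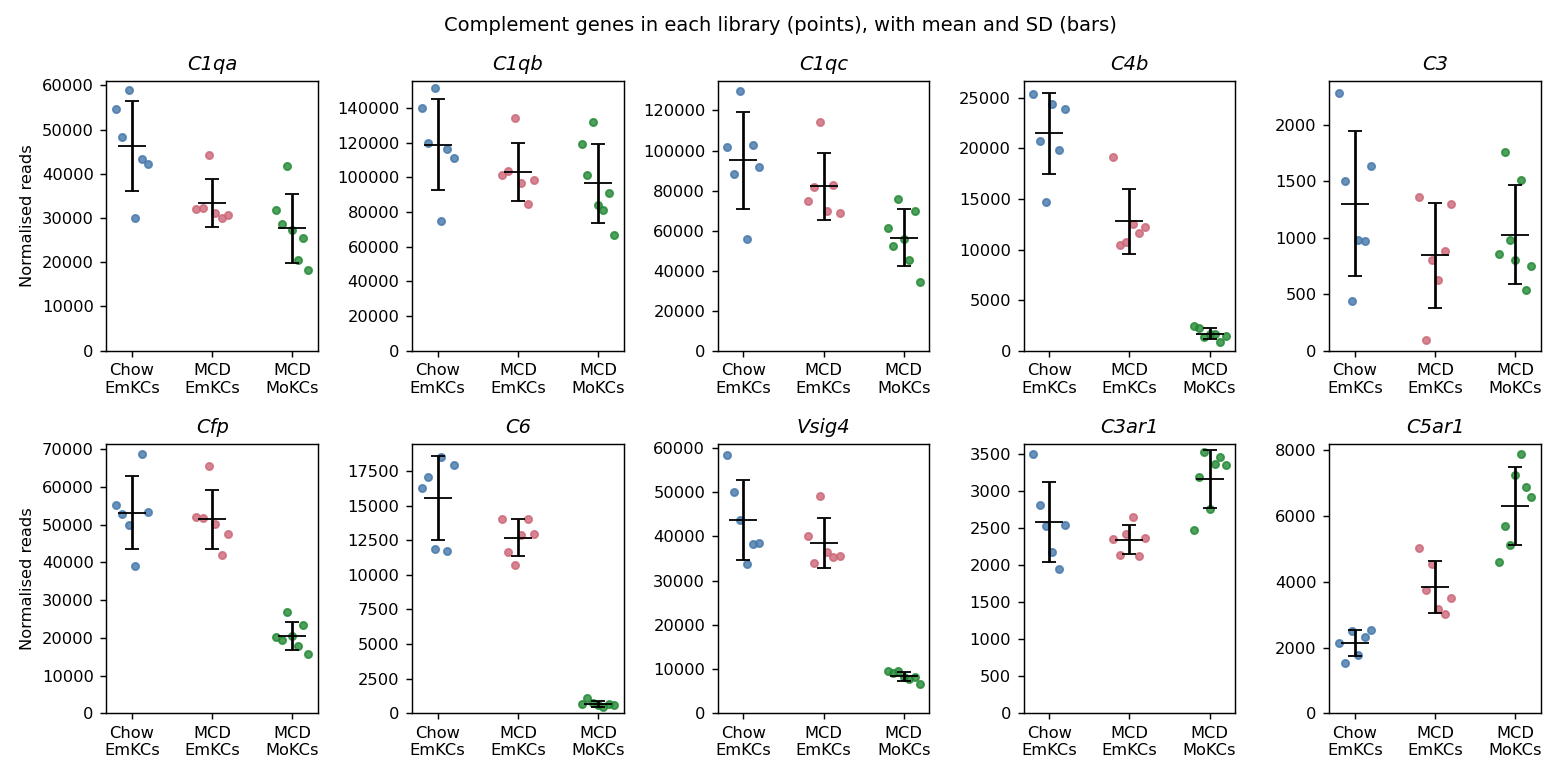
Normalised reads (linear axes starting at 0) of the 10 complement genes in each library, with group mean and SD as bars, for Chow_EmKCs (n = 6), MCD_EmKCs (n = 6) and MCD_MoKCs (n = 7). C6, C4b, Vsig4 and Cfp are lower in every MCD_MoKC library than in any EmKC library, and C5ar1 is higher in every MCD_EmKC and MCD_MoKC library than in any Chow_EmKC library.

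The C1q chains stayed among the abundant transcripts in all groups. C1qa ran from 30024 to 58957 normalised reads in Chow_EmKCs (median 45869), from 30103 to 44274 in MCD_EmKCs (median 31657) and from 18203 to 41717 in MCD_MoKCs (median 27190). The 3 ranges overlapped, and 5 of the 6 MCD_EmKC libraries lay within 30103 to 32188. C1qa differed between MCD_MoKCs and Chow_EmKCs (log2 fold change -0.76, SE 0.16, limma adjusted p = 0.0014), and not past the threshold with the diet (-0.45, SE 0.17, limma adjusted p = 0.16) or between cell types on the diet (-0.31, SE 0.16, limma adjusted p = 0.27).

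C1qb ran from 74766 to 151402 normalised reads in Chow_EmKCs, from 84405 to 134336 in MCD_EmKCs and from 67057 to 132240 in MCD_MoKCs. All ranges overlapped widely, and no comparison passed for it. Its log2 fold changes were -0.19 (SE 0.16), -0.12 (SE 0.15) and, for MCD_MoKCs against Chow_EmKCs, -0.30 (SE 0.15, limma adjusted p = 0.20). C1qc ran from 55902 to 129932 normalised reads in Chow_EmKCs (median 96687), from 68974 to 114247 in MCD_EmKCs (median 78458) and from 34237 to 75664 in MCD_MoKCs (median 55968). The MCD_MoKC range reached into both EmKC ranges at its upper end. C1qc was lower in MCD_MoKCs than in MCD_EmKCs (-0.56, SE 0.18, limma adjusted p = 0.041) and than in Chow_EmKCs (-0.75, SE 0.18, limma adjusted p = 0.0032), and changed by -0.19 (SE 0.18, limma adjusted p = 0.67) with the diet.

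The C1qc difference between MCD_MoKCs and MCD_EmKCs did not pass with edgeR's quasi-likelihood test (adjusted p = 0.068) or DESeq2 (adjusted p = 0.054), nor in limma without MCD_EmKC library 1, 2, 3 or 5 or MCD_MoKC library 2, 4, 5 or 7 (limma adjusted p = 0.0543 to 0.0996). It was also lost with no filter on low values (limma adjusted p = 0.053), with upper-quartile scaling (limma adjusted p = 0.061) and without MCD_MoKC libraries 4 to 7 (-0.38, limma adjusted p = 0.25). Among library numbers from 37, which include only MCD_MoKC libraries 6 and 7, it was lost as well (limma adjusted p = 0.36). There C1qc against Chow_EmKCs did not pass either, at -0.72 (limma adjusted p = 0.16) beside -0.75 in all libraries. Chow_EmKC library 4 was the lowest of its group for all 3 C1q genes. Without it, C1qa passed for the diet (-0.57, limma adjusted p = 0.048) and C1qb for MCD_MoKCs against Chow_EmKCs (-0.43, limma adjusted p = 0.038). C1qb passed there also with the library number set as a covariate (-0.38, limma adjusted p = 0.040). Without MCD_MoKC libraries 4 to 7 the C1qa and C1qb differences between cell types turned to 0.023 and 0.19, C1qb against Chow_EmKCs turned to 0.0077, and C1qa and C1qc no longer passed against Chow_EmKCs (limma adjusted p = 0.13 and 0.062). Without libraries 1 to 3 instead, C1qa passed between cell types (-0.56, limma adjusted p = 0.047), and against Chow_EmKCs C1qa was -1.01 (limma adjusted p = 0.00016) and C1qb passed (-0.53, limma adjusted p = 0.026). C1qa (28634 to 41717 against 18203 to 27190 normalised reads) and C1qb (101237 to 132240 against 67057 to 90847) were both higher in libraries 1 to 3 than in libraries 4 to 7, the same split as the mitochondrial share, whose part in these levels was not tested.

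Within a library, the balance of the C1q transcripts shifted. The log2 ratio of C1qb to C1qa ran from 1.31 to 1.42 in Chow_EmKCs, from 1.49 to 1.69 in MCD_EmKCs and from 1.63 to 1.99 in MCD_MoKCs. Every MCD library lay above every chow library. Its mean was 0.26 higher in MCD_EmKCs than in Chow_EmKCs (exact two-sided permutation p = 0.0022, adjusted p = 0.0043 over 12 ratio tests), with no overlap. It was 0.19 higher in MCD_MoKCs than in MCD_EmKCs (exact permutation p = 0.014, adjusted p = 0.023), with overlap, and 0.46 higher than in Chow_EmKCs (exact permutation p = 0.0012, adjusted p = 0.0035). The smallest p these designs allow is 0.00216 for 6 against 6 libraries and 0.00117 for 6 against 7.

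C1qc to C1qa behaved otherwise. This log2 ratio was 1.03 ± 0.16 in Chow_EmKCs, 1.29 ± 0.12 in MCD_EmKCs and 1.03 ± 0.22 in MCD_MoKCs (SD). It was higher in MCD_EmKCs than in Chow_EmKCs by 0.26 (exact permutation p = 0.015, adjusted p = 0.023), and the difference between MCD_MoKCs and Chow_EmKCs was 0.0051 (exact permutation p = 0.98). MCD_MoKCs were 0.25 below MCD_EmKCs (exact permutation p = 0.028, adjusted p = 0.037), and this last call was lost without MCD_EmKC library 2, 3 or 5 or MCD_MoKC library 1, 2, 3, 4 or 7 (exact permutation, adjusted p = 0.0577 to 0.0808). A ratio of 2 genes in 1 library shows unequal change, and not which of them changed.

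**Figure D3:**
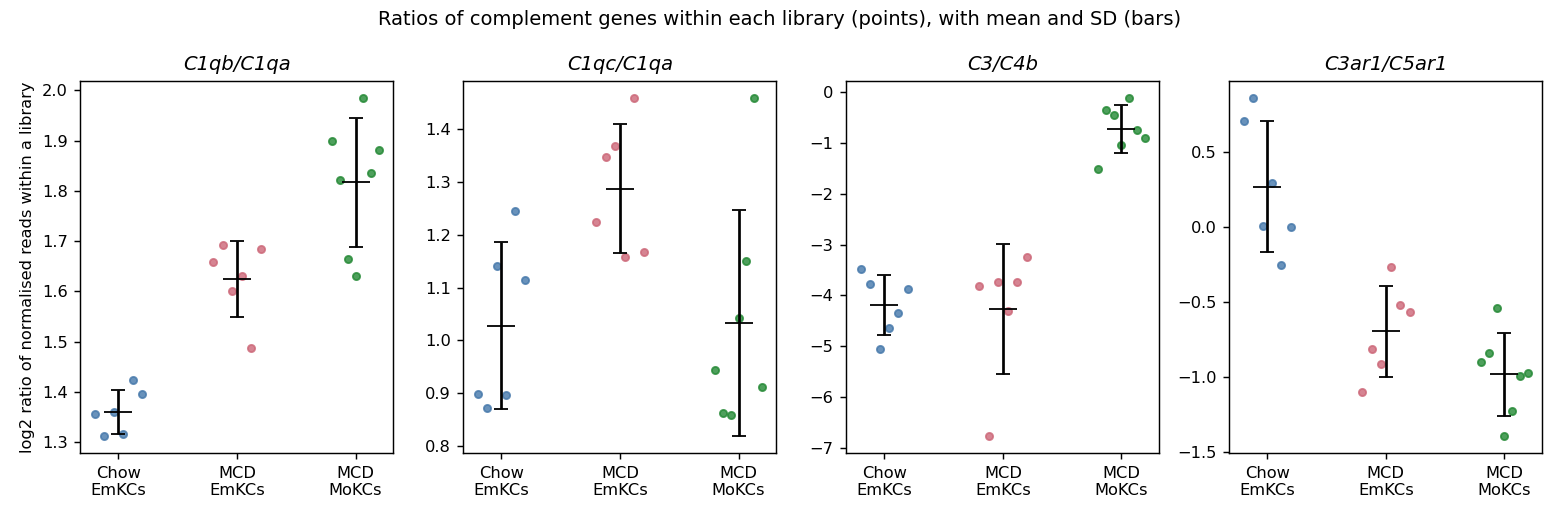
Log2 ratio of normalised reads of paired complement genes within each library, with group mean and SD, for Chow_EmKCs (n = 6), MCD_EmKCs (n = 6) and MCD_MoKCs (n = 7). C1qb/C1qa lies above 1.48 in all MCD libraries and between 1.31 and 1.42 in the chow libraries, and C3/C4b lies at -1.52 or higher in MCD_MoKCs and below -3.2 in both EmKC groups.

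C4b encodes C4, the component that activated C1 cleaves. It ran from 14699 to 25336 normalised reads in Chow_EmKCs (median 22297), from 10452 to 19110 in MCD_EmKCs (median 11976) and from 905.4 to 2453 in MCD_MoKCs (median 1632). All MCD_MoKC libraries were far below both EmKC groups, and of the MCD_EmKC libraries only library 1, at 19110, reached into the chow range. C4b was 7.69-fold lower in MCD_MoKCs than in MCD_EmKCs (log2 fold change -2.98, SE 0.19, limma adjusted p = 2.88e-11) and lower than in Chow_EmKCs by 3.73 on the log2 scale (SE 0.19, limma adjusted p = 7.96e-14).

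With the diet C4b changed by -0.76 (SE 0.20, limma adjusted p = 0.026), from 21468 ± 3957 to 12790 ± 3200 normalised reads (SD, n = 6 and 6). This call was lost when any of 6 libraries was left out (Chow_EmKCs 1, 4 or 6 or MCD_EmKCs 2, 3 or 5, with limma adjusted p of 0.0541 to 0.0695 and fold changes of -0.74 to -0.70). Among libraries numbered up to 33 in the deposited names (libraries 1 to 3 of each EmKC group) it was -0.61 (limma adjusted p = 0.34). Among those from 37 (libraries 4 to 6 of each) it was -0.90 (limma adjusted p = 0.021). The hepatocyte marker share moved the same way, 0.0534% ± 0.0231 in Chow_EmKCs and 0.00874% ± 0.00686 in MCD_EmKCs (SD), and its part in the C4b change was not tested. C4a, the near-identical copy of C4b, stood at 29.5, 25.2 and 19.2 normalised reads in the 3 groups, and reads of the pair could have been split in counting. Summing both genes gave -0.75 for the diet and -2.96 between the cell types.

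C3, the component on which all pathways converge, was far lower than C4b in both EmKC groups, while the 2 genes overlapped in MCD_MoKCs. C3 varied more between libraries relative to its mean. Its normalised reads ran from 441.3 to 2280 in Chow_EmKCs (median 1240), from 94.2 to 1360 in MCD_EmKCs (median 841) and from 541.8 to 1760 in MCD_MoKCs (median 858). The ranges overlapped throughout, and no comparison passed. The log2 fold changes were -0.83 (SE 0.53, limma adjusted p = 0.49) with the diet, 0.56 (SE 0.51, limma adjusted p = 0.57) between cell types and -0.27 (SE 0.51, limma adjusted p = 0.79) for MCD_MoKCs against Chow_EmKCs. Without MCD_EmKC library 2, the lowest for C3, they were -0.27 with the diet and 0.0043 between cell types, and against Chow_EmKCs the value ran from -0.55 without Chow_EmKC library 3 to -0.074 without Chow_EmKC library 1. Relative to each other, C3 and C4b moved between the cell types. The log2 ratio of C3 to C4b was -4.19 ± 0.59 in Chow_EmKCs, -4.27 ± 1.28 in MCD_EmKCs and -0.73 ± 0.48 in MCD_MoKCs (SD). It was 3.54 higher in MCD_MoKCs than in MCD_EmKCs and 3.46 higher than in Chow_EmKCs (exact permutation p = 0.0012, adjusted p = 0.0035 for each), with no overlap, and differed by -0.073 with the diet (exact permutation p = 0.94).

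Of the 10 genes, properdin had the highest mean level per kb outside C1q in each group, and it separated the cell types. Cfp ran from 38958 to 68732 normalised reads in Chow_EmKCs (median 53009), from 42030 to 65489 in MCD_EmKCs (median 50853) and from 15734 to 26742 in MCD_MoKCs (median 20258). The EmKC ranges were nearly the same and MCD_MoKCs lay below both without overlap. It was 2.51-fold lower in MCD_MoKCs than in MCD_EmKCs (log2 fold change -1.33, SE 0.13, limma adjusted p = 5.03e-08) and -1.37 against Chow_EmKCs (SE 0.13, limma adjusted p = 1.25e-08). The change with the diet was -0.040 (SE 0.14, limma adjusted p = 0.93), and its sign turned in 3 of the other fits.

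C6 had the largest fold change of the 10 genes in both comparisons with MCD_MoKCs. It ran from 11735 to 18477 normalised reads in Chow_EmKCs (median 16635), from 10680 to 14017 in MCD_EmKCs (median 12914) and from 452.5 to 1126 in MCD_MoKCs (median 681.5). Each MCD_MoKC library lay far below each EmKC library, and the EmKC groups overlapped. The level in MCD_MoKCs was 18.1-fold lower than in MCD_EmKCs (log2 fold change -4.21, SE 0.17, limma adjusted p = 1.57e-15) and lower than in Chow_EmKCs by 4.49 on the log2 scale (SE 0.17, limma adjusted p = 6.55e-17). With the diet it was -0.28 (SE 0.17, limma adjusted p = 0.47). The hepatocyte marker share was 0.0534% ± 0.0231 in Chow_EmKCs, 0.00874% ± 0.0069 in MCD_EmKCs and 0.00614% ± 0.0017 in MCD_MoKCs (SD). The ranges of both MCD groups overlapped, and the part of this share in the C6 levels was not tested.

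Vsig4, the receptor for C3 fragments on Kupffer cells, followed the same division. It ran from 33745 to 58372 normalised reads in Chow_EmKCs (median 41102), from 33962 to 49185 in MCD_EmKCs (median 35991) and from 6744 to 9505 in MCD_MoKCs (median 8221). The MCD_MoKC libraries formed a narrow band below all others. The level was 4.56-fold lower in MCD_MoKCs than in MCD_EmKCs (log2 fold change -2.19, SE 0.13, limma adjusted p = 2.83e-12) and lower than in Chow_EmKCs by 2.36 on the log2 scale (SE 0.13, limma adjusted p = 2.09e-13). With the diet it was -0.17 (SE 0.13, limma adjusted p = 0.56). Within MCD_MoKCs, libraries 1 to 3 (9027 to 9505) again lay above libraries 4 to 7 (6744 to 8221).

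C5ar1, the receptor for the anaphylatoxin C5a, was the one gene of the 10 to pass as higher. It ran from 1544 to 2543 normalised reads in Chow_EmKCs (median 2225), from 3032 to 5031 in MCD_EmKCs (median 3619) and from 4611 to 7875 in MCD_MoKCs (median 6578). Chow libraries lay below all MCD libraries, while the 2 MCD groups overlapped between 4611 and 5031. C5ar1 rose with the diet in EmKCs (log2 fold change 0.84, SE 0.17, limma adjusted p = 0.0027). It was higher in MCD_MoKCs than in MCD_EmKCs (0.71, SE 0.16, limma adjusted p = 0.0035) and than in Chow_EmKCs (1.56, SE 0.16, limma adjusted p = 5.60e-08). Neutrophils and monocytes also carry this receptor. Neutrophil markers (6 genes, none at 0 throughout a group) took 8.3e-05 to 0.00085% of reads in Chow_EmKCs, 0.00021 to 0.0011% in MCD_EmKCs and 0.00063 to 0.013% in MCD_MoKCs. These ranges overlapped, while the medians rose in that order, at 0.00029, 0.00065 and 0.0034%. By mean, S100a8, S100a9, Retnlg and Mmp8 were highest in MCD_MoKCs, and Ly6g and Camp were not. Monocyte markers (5 genes) took 0.0097 to 0.015%, 0.0046 to 0.0071% with Ly6c2 at 0, and 0.0093 to 0.013%, with Vcan at 0 in Chow_EmKCs. Among them Ccr2, a monocyte chemokine receptor, ran from 0 to 59.4 normalised reads in Chow_EmKCs, from 0 to 95.7 in MCD_EmKCs and from 479 to 1107 in MCD_MoKCs. Chil3, Ly6c2 and Vcan also had their highest mean in MCD_MoKCs. Plac8, the most abundant of the 5 by mean, went the other way. It was highest on chow, at 1606 to 2844 normalised reads. On the MCD diet it ran from 964 to 1266 in embryo-derived cells and from 468 to 1032 in MCD_MoKCs. The part of such cells in the C5ar1 levels was not tested.

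The C5ar1 calls with the diet and between the cell types on the MCD diet both held when any 1 library was left out. Their limma adjusted p ran from 0.0026 to 0.00905 with the diet and from 0.0016 to 0.013 between the cell types. Smaller sets of libraries kept the direction, but not all of them kept the calls. With the diet the log2 fold change of C5ar1 was 1.12 among library numbers up to 33 (libraries 1 to 3 of each EmKC group, limma adjusted p = 0.028). Among those from 37 (libraries 4 to 6 of each) it was 0.57 (limma adjusted p = 0.14). Between the cell types it was 0.44 in the first set, with MCD_MoKC libraries 1 to 5 (limma adjusted p = 0.28). In the second set, with only MCD_MoKC libraries 6 and 7, it was 1.06 (limma adjusted p = 0.0079). Left with MCD_MoKC libraries 1 to 3 alone (4611 to 5695 normalised reads, against 6578 to 7875 in libraries 4 to 7), the difference between cell types was 0.44 (limma adjusted p = 0.18).

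C3ar1, the receptor for C3a, differed less. Its normalised reads ran from 1940 to 3489 in Chow_EmKCs (median 2534), from 2119 to 2642 in MCD_EmKCs (median 2356) and from 2475 to 3520 in MCD_MoKCs (median 3346). All but 1 MCD_MoKC library, at 2475, exceeded every MCD_EmKC library, and the chow range covered most of both. The log2 fold changes were -0.12 (SE 0.15, limma adjusted p = 0.75) with the diet, 0.43 (SE 0.14, limma adjusted p = 0.052) between cell types and 0.31 (SE 0.14, limma adjusted p = 0.15) for MCD_MoKCs against Chow_EmKCs. The difference between the cell types passed with DESeq2 on the recovered reads (0.44, adjusted p = 0.028), with only these 2 groups in the limma fit (adjusted p = 0.038) and without MCD_MoKC library 1 (0.49, limma adjusted p = 0.030). The log2 ratio of C3ar1 to C5ar1 was 0.27 ± 0.44 in Chow_EmKCs, -0.70 ± 0.30 in MCD_EmKCs and -0.98 ± 0.28 in MCD_MoKCs (SD). It was lower than in chow in both MCD groups without overlap, by differences of -0.96 (exact permutation p = 0.0022, adjusted p = 0.0043) and -1.25 (exact permutation p = 0.0012, adjusted p = 0.0035), and the MCD groups differed by -0.29 (exact permutation p = 0.11, adjusted p = 0.13, or 0.0455 without MCD_EmKC library 1).

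**Figure D4:**
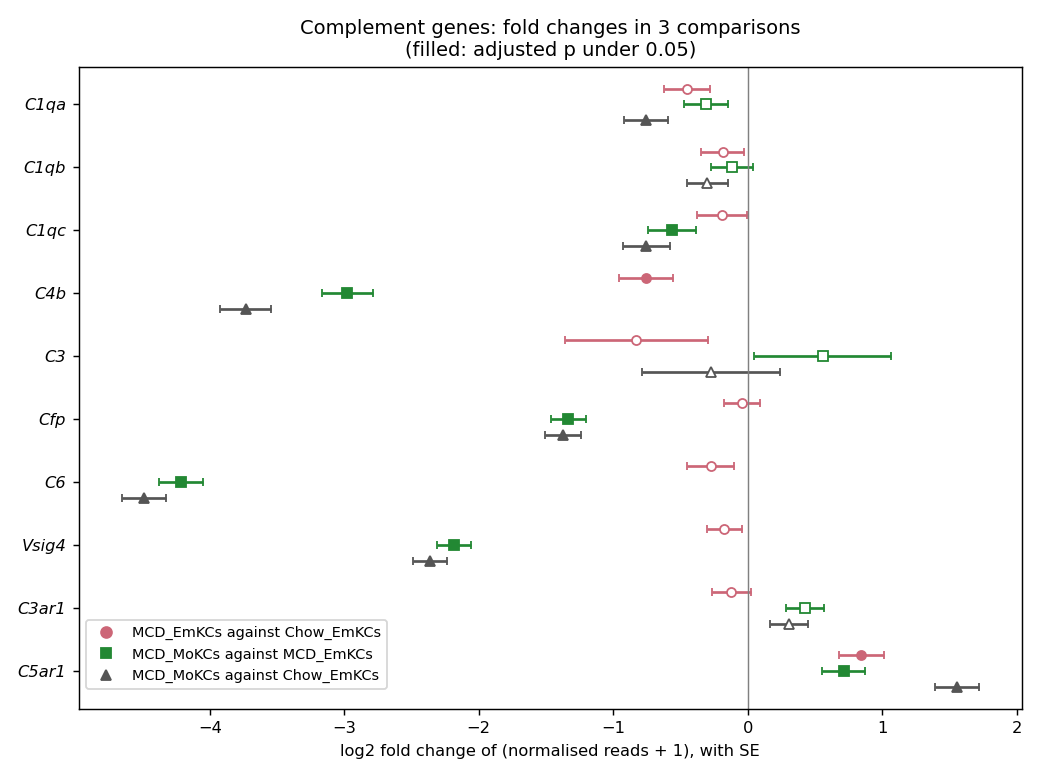
Log2 fold changes of (normalised reads + 1) with SE from limma for the 10 complement genes in 3 comparisons; filled symbols have an adjusted p under 0.05 over 14875 genes. C6 (-4.21), C4b (-2.98), Vsig4 (-2.19) and Cfp (-1.33) lie far to the left for MCD_MoKCs against MCD_EmKCs, and C5ar1 lies to the right in all 3 comparisons.

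Of 44 other complement genes followed in the table, 31 passed the filter on low values. For the diet in EmKCs 1 was higher and 2 were lower, between the cell types 1 was higher and 3 were lower, and for MCD_MoKCs against Chow_EmKCs 2 were higher and 8 lower, where 4.08%, 10.5% and 16.8% of all genes tested passed. Their median log2 fold changes were -0.21, -0.13 and -0.45, beside -0.039, 0.021 and -0.012 over all genes. Of the genes tested that start the classical and lectin pathways (10), soluble regulators (6), membrane regulators (4), receptors (7), convertase-level components (3) and terminal components (1), the numbers past the threshold between the cell types were 1, 0, 1, 1, 1 and 0. Of the partners of C6 in the membrane attack complex, C7, C8a, C8b and C9 were too low to be tested. C8g and Hc, which encodes C5, were tested and passed in no comparison, with 372, 313 and 204 normalised reads for C8g and 62.5, 46.7 and 58.5 for Hc in Chow_EmKCs, MCD_EmKCs and MCD_MoKCs.

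Fcna, which encodes ficolin A, a lectin that starts complement activation on sugars, ran from 39425 to 72814 normalised reads in Chow_EmKCs, from 39861 to 57913 in MCD_EmKCs and from 4917 to 11487 in MCD_MoKCs. The MCD_MoKC libraries lay below all EmKC libraries (log2 fold change against MCD_EmKCs -2.61, SE 0.17, limma adjusted p = 4.17e-11). Fcna overlaps the antisense gene Fcnaos, and without a stated strand setting reads of the 2 cannot be told apart. C2, the protease that joins C4 to form the classical C3 convertase, had 6731 ± 492 normalised reads in embryo-derived cells on chow, 5938 ± 611 in those on the MCD diet and 3219 ± 291 in MCD_MoKCs (SD). It was lower in MCD_MoKCs without overlap (against MCD_EmKCs -0.88, SE 0.11, limma adjusted p = 3.19e-06).

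Among regulators, Cd55, which encodes decay-accelerating factor, an inhibitor of convertases on the cell surface, was at 557 ± 199, 841 ± 135 and 172 ± 131 normalised reads in the same order (SD), and lower in MCD_MoKCs than in MCD_EmKCs (-2.68, SE 0.42, limma adjusted p = 5.79e-05). It did not pass with the diet (0.67, limma adjusted p = 0.48). Cr1l, which encodes the rodent convertase inhibitor Crry, stood at 556, 538 and 545 normalised reads, with log2 fold changes between -0.037 and 0.0033 in the 3 comparisons.

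Itgax, the alpha chain of complement receptor CR4, rose throughout. It ran from 1.86 to 29.2 normalised reads in Chow_EmKCs, from 226 to 618 in MCD_EmKCs and from 1729 to 3936 in MCD_MoKCs. The 3 groups did not overlap. Dendritic cells also carry Itgax, and their markers (5 genes, none at 0 throughout a group) took 0.0013 to 0.0043%, 0.0013 to 0.0046% and 0.0026 to 0.0068% of reads, while those of T and NK cells (8 genes, Ncr1 at 0 in Chow_EmKCs) took 0.00055 to 0.0012%, 0.0011 to 0.0026% and 0.0049 to 0.0076%. Their part in the Itgax levels was not tested. The log2 level of Itgax was 4.60 higher with the diet (SE 0.44, limma adjusted p = 6.93e-08) and 2.90 higher in MCD_MoKCs than in MCD_EmKCs (SE 0.42, limma adjusted p = 2.06e-05). Itgb2, the beta chain shared by CR3 and CR4, was higher in MCD_MoKCs than in Chow_EmKCs (0.78, SE 0.13, limma adjusted p = 6.09e-05). It did not pass with the diet (0.45, SE 0.13, limma adjusted p = 0.054), where the ranges stood apart. Nor did Itgb2 pass between the cell types (0.33, SE 0.13, limma adjusted p = 0.10), where they overlapped. Itgam, the alpha chain of CR3, did not pass for MCD_MoKCs against Chow_EmKCs (0.44, SE 0.24, limma adjusted p = 0.24).

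The other genes past the threshold were low and are products of hepatocytes. Vtn and Mbl2 were lower with the diet, at 324 against 49.9 and 23.7 against 0.50 normalised reads (log2 fold changes -3.35 and -4.03, limma adjusted p = 0.021 and 0.026). Mbl1, Cfi and C4bp were lower in MCD_MoKCs than in Chow_EmKCs (-3.07, -3.78 and -3.37, limma adjusted p = 0.028, 0.021 and 0.011), as were Vtn and Mbl2 (-3.94 and -3.02). Mbl1 and Cfi also had lower means in MCD_EmKCs (2.38 and 9.11) than on chow (24.1 and 72.5), without passing. Mean C4bp was 19.8 on chow, 20.9 in MCD_EmKCs and 1.62 in MCD_MoKCs. It passed neither with the diet (-0.63, limma adjusted p = 0.81) nor between the cell types (-2.7, limma adjusted p = 0.057). The hepatocyte marker share was higher in every Chow_EmKC library (0.0302% or more) than in any MCD library (0.0225% or less), and its part in these differences was not tested.

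**Figure D5:**
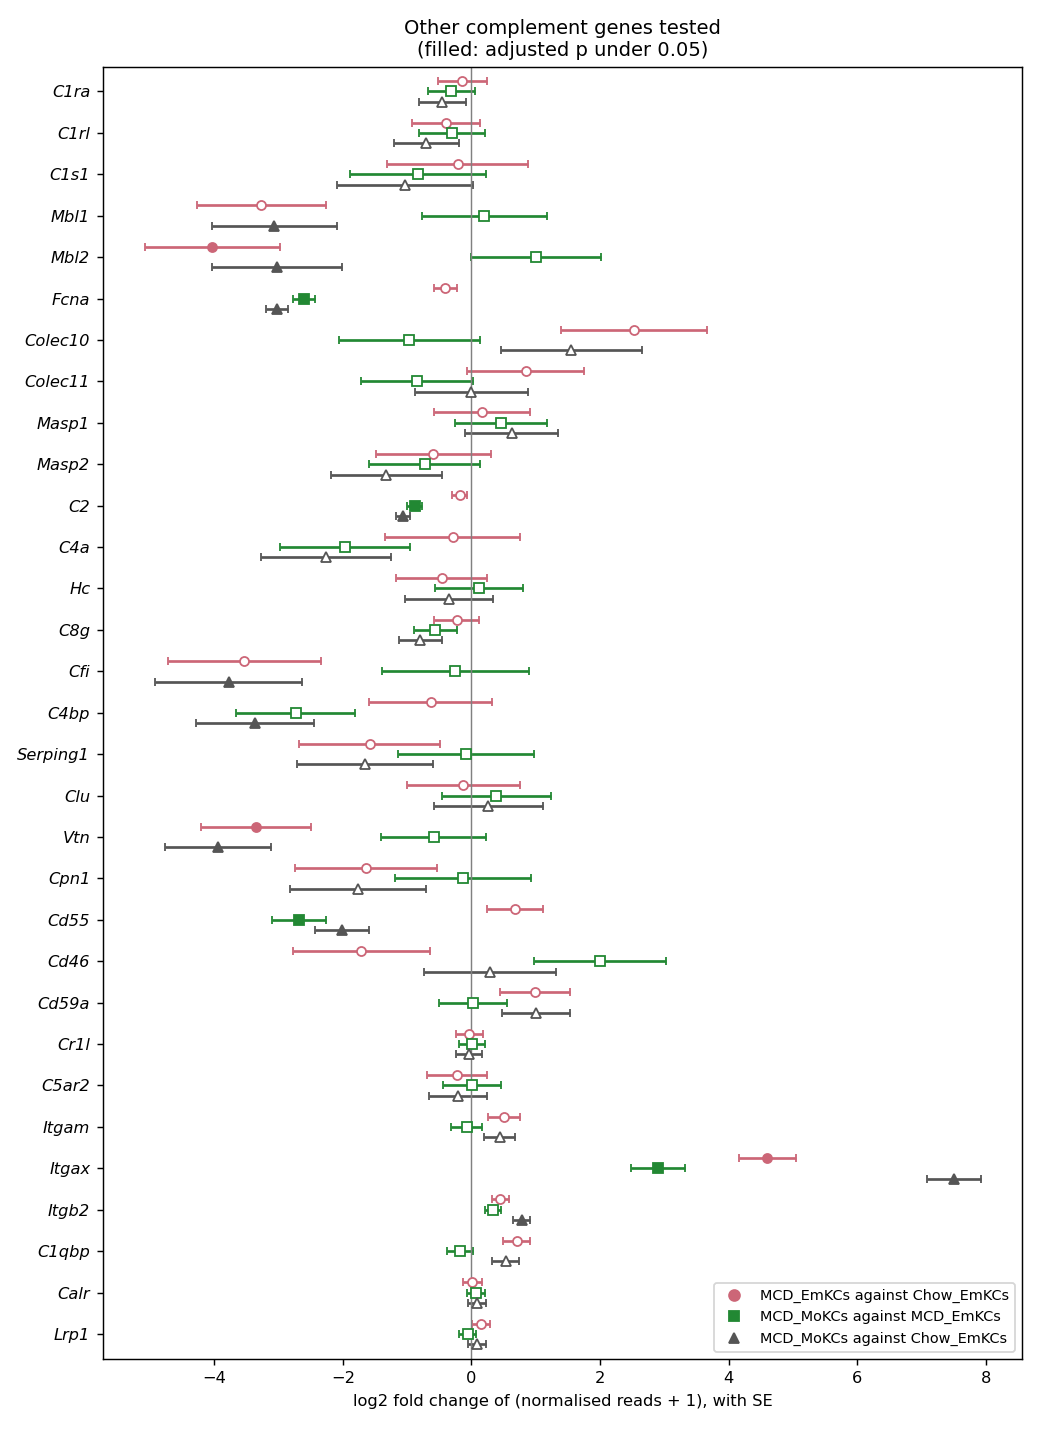
Log2 fold changes of (normalised reads + 1) with SE from limma for the 31 other complement genes tested; filled symbols have an adjusted p under 0.05. Itgax is at 4.60 with the diet and 2.90 between the cell types, and Fcna (-2.61), Cd55 (-2.68) and C2 (-0.88) are lower in MCD_MoKCs than in MCD_EmKCs.

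As a description over the 19 libraries, the genes whose log2 levels ran most like each complement gene were listed by Pearson r, where all points share libraries and group differences. C6 ran most like Clec4f (0.99) and Timd4 (0.99), both markers of resident Kupffer cells, and C4b like Timd4 (0.97) and C6 (0.97). Vsig4 and Cfp ran most like Fcna (0.99 and 0.97) and its antisense neighbour Fcnaos (0.99 and 0.97). C5ar1 ran like Gm12523 (0.95) and Sdc4 (0.95), the latter at 897, 4529 and 9451 normalised reads in the 3 groups. C1qa was nearest to Gpx1 (0.96) and Ifitm3 (0.94), C1qb to Prdx5 (0.95) and E230016K23Rik (0.91), and C1qc to C1qa (0.90) and Cd81 (0.89). For C3 and C3ar1 the nearest genes were less alike, A730011C13Rik (0.82) and Dock6 (0.81) for C3, and P2ry10 (0.85) and Psmd14 (0.81) for C3ar1.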

How the data were processed

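The authors deposited 1 table of 33919 mouse gene identifiers by 19 libraries of sorted Kupffer cells, and all its columns were used. The deposited unit is a scaled read signal: in each library 100% of values were whole multiples of 1 step within 0.001 reads, so each column is a read table that the authors divided by a single factor. Per the submitters' processing notes, STAR, DESeq2 and the mm10 build were used. No source used here gives versions, the counting tool or its strand setting. Per the labels' protocols, cells came from collagenase-digested liver and libraries were made by Smart-seq.

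Groups were taken from the labels. The main test was limma 3.58.1 under R 4.3.3, run with a variance trend and robust estimates after a log2 transform with pseudocount 1, for the 14875 genes that reached 10 in 6 or more libraries. All libraries entered 1 model with 3 two-sided contrasts and Benjamini-Hochberg adjustment at 0.05. Within-library ratios were compared by exact two-sided permutation tests with scipy 1.17.1, adjusted over 12 tests. On the recovered reads edgeR 4.0.16 (quasi-likelihood) called 550, 1303 and 2096 genes and DESeq2 1.42.0 called 904, 1846 and 2588 for the diet, the cell types and MCD_MoKCs against Chow_EmKCs, where limma called 607, 1568 and 2493. Levels per kb divide by the exonic bases of GENCODE vM21. Reads carry no molecular identifiers, so the spread between libraries was used in place of counting error.

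The 10 genes, the 46 other complement genes (44 in the table, with C1rb and Cfb not analysed here) and 13 marker lists were chosen with earlier results of these data known. A further complement gene is not reported here. All 10 genes, other complement genes past the threshold and the 2 genes most like each were to be named, and other genes were named after their values were seen. Alternatives changed the pseudocount, filter, scaling, tool, covariates and libraries. Library numbers in the column names (up to 33, and from 37) were used as sets. The first set held libraries 1 to 3 of each EmKC group and 1 to 5 of MCD_MoKCs. The second held libraries 4 to 6 of each EmKC group and only 6 and 7 of MCD_MoKCs. Fits within each set and the sum of C4a and C4b were alternatives chosen after seeing the data. The labels do not call them batches.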

Additional observations from a re-analysis of the deposited data

Results flagged for a closer look

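In 4 of 42 groups of values tested, the highest or lowest library stood apart from the rest by Dixon's criterion at 95%, and chance flags about 1 in 20 groups. All 4 were in MCD_EmKCs. C4b reached 19110 normalised reads in library 1, where the next highest library had 12486. C1qa reached 44274 in library 3, where the next highest had 32188. C1qc reached 114247 in the same library 3, where the next highest had 82799. The log2 ratio of C3 to C4b was -6.78 in library 2, where the next lowest was -4.31, and C3 stood at 94.2 normalised reads in that library.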

How the results depend on the processing

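Of 753 log2 fold changes of the 10 genes under other settings, 709 kept their direction and side of the threshold, 27 lost the call, 9 gained it and 8 changed sign. None of the 8 was past the threshold in either fit. They were, for the diet, C3ar1 0.10 from library number 37, and Cfp 0.092 up to 33, with a range of -0.13 to 0.038 when 1 library was left out. Between cell types C3 was -0.49 from 37, and without MCD_MoKCs 4 to 7 C1qa was 0.023 and C1qb 0.19. C1qb against Chow_EmKCs was 0.0077 without those libraries. The log2 ratio of C3 to C4b with the diet ran from -0.28 to 0.43 when 1 library was left out (0.43 without MCD_EmKCs 2), and C1qc to C1qa in MCD_MoKCs against Chow_EmKCs from -0.066 to 0.049. The cause was not tested.

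Within library numbers up to 33 and from 37, all genes called were 183 and 250 for the diet, 799 and 535 between cell types and 1168 and 1131 for MCD_MoKCs against Chow_EmKCs, in fits with fewer libraries. Without MCD_MoKCs 1 to 3, 942 were called between cell types. With the diet, 1 of the 10 genes was called in each set, and 1 to 2 when single libraries were left out. The other complement genes called with the diet were 5 with DESeq2, 1 with edgeR, 5 with the library set as a covariate and 1 in each set, and for MCD_MoKCs against Chow_EmKCs 5 in each set. For the diet, 79.8% of genes called up to 33 were higher, against 61.3% in all libraries.

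Same-numbered libraries correlated by -0.074 to 0.076 in their deviations from group means. The best match carried the same number for numbers 3 and 6 with the diet and 2 and 3 between the cell types. For MCD_MoKCs against Chow_EmKCs it did so for 2, 3 and 4. These correlations cannot settle whether libraries are paired, under these numbers or others. With the number as a replicate block, 608, 1658 and 2474 genes were called for the diet, the cell types and MCD_MoKCs against Chow_EmKCs, and C1qa with the diet passed (-0.45, limma adjusted p = 0.024). All 9 ratio calls missed 0.05 in the blocked exact test of 6 pairs, where 0.0536 is the adjusted form of the smallest p possible. There the diet differences were 0.26 for C1qb to C1qa, 0.26 for C1qc to C1qa and -0.96 for C3ar1 to C5ar1, those of MCD_MoKCs against Chow_EmKCs 0.45, 3.49 (C3 to C4b) and -1.25, and C3 to C4b between cell types 3.57 (adjusted p = 0.0536 for each). Between cell types C1qb to C1qa was 0.18 (adjusted p = 0.0938) and C1qc to C1qa -0.23 (adjusted p = 0.167) in that exact test. With 1 library left out, C1qc to C1qa ran from -0.33 to -0.22 between cell types, and C3ar1 to C5ar1 from -0.37 to -0.20, past the threshold only without MCD_EmKCs 1 (adjusted p = 0.0455, exact permutation).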
